A study of Mus musculus with 15 samples.

Results

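Olfr2 and 9 genes of odorant receptor signalling were followed through RNA-seq counts of macrophages sorted from mouse aorta. The 10 genes were taken by symbol from the 47729 features of the count table: the receptor Olfr2 (now named Or6a2), the receptor transporters Rtp1 and Rtp2, the G protein subunit Gnal and its partner Ric8b, the adenylyl cyclase Adcy3, and the channel subunits Cnga1, Cnga2, Cnga3 and Cnga4. Each of the 10 symbols was found and all 10 passed the filter on low counts. The columns carried 1 of 2 names, Olfr2+ (10 columns) or Olfr2- (5 columns), given by the sort. Both kinds of cell were sorted as F4/80+ CD64+ macrophages from aortas of female Apoe-/- mice that had eaten a high fat (Western) diet for 4 weeks. Mice lacking Apoe, a lipoprotein ligand that clears cholesterol-rich particles, develop atherosclerosis on such a diet. The labels do not state the age of the mice or the way Olfr2 was detected for the sort.

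Cells from the aortas of 4 mice were pooled before sorting, and the labels call the sorts technical replicates. A sort held 100 to 200 cells, and its cDNA was amplified by 18 PCR cycles before 9 more cycles of library PCR. Titles carry a number, taken here as the sorted sample, and a letter, taken as its repeat, a reading that the labels do not state. It gives Olfr2+ samples 2, 3 and 4 and Olfr2- samples 1, 3 and 4, so 3 samples in each group. P-values therefore measure how far these samples spread, and that spread may be technical.

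Odorant receptors are G protein-coupled receptors that olfactory sensory neurons use to detect volatile molecules. A bound receptor activates the G protein Golf, which stimulates adenylyl cyclase 3, and the cAMP that is made opens a cyclic nucleotide-gated channel and lets calcium in. Receptor transporting proteins carry the receptors to the cell surface, and some receptors are also studied in tissues outside the nose, vascular macrophages among them.

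Depth and library content differed between columns before any gene was compared. Column totals were 76.0 to 95.6 M counts (M, 1000000) in 7 Olfr2+ columns (2A to 2D and 3A to 3C), 29.9 to 37.6 M in the other 3 Olfr2+ columns (3D, 4A and 4B) and 30.5 to 53.2 M in the 5 Olfr2- columns. Protein-coding genes took 94.6 to 97.5% of counts in the 7 deep Olfr2+ columns, 78.5 to 80.4% in the 3 shallow ones and 79.5 to 85.6% in the Olfr2- columns. All 9 macrophage markers were counted. Their summed level was 7056 to 13767 CPM (counts per 1000000 of the column total) in the 7 deep Olfr2+ columns. It was 2348 to 3320 CPM in the shallow ones and 1489 to 8563 CPM in Olfr2- columns. The 5 fibroblast markers (Col1a1, Col1a2, Dcn, Lum and Pdgfra) summed to 24723 to 28527 CPM in the 7 deep Olfr2+ columns, 2044 to 4176 CPM in the shallow ones and 1938 to 3459 CPM in Olfr2- columns. In the deep columns the fibroblast markers thus summed to more than the macrophage markers. Because deep columns occur in Olfr2+ alone, fold changes are also given over the 8 columns below 60 M counts, 3 Olfr2+ against 5 Olfr2-, which the test summed to 2 Olfr2+ against 3 Olfr2- samples.

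The 10 genes fell into 2 sets by how widely they were counted. Gnal, Ric8b and Adcy3 had counts in all 15 columns, with 11874, 23385 and 12090 counts in total. All 7 others had 156 to 286 counts each over the 15 columns together and are called the scarce genes here. The filter on low counts asked for about 0.126 CPM. Olfr2, Rtp2 and Cnga1 reached it in no Olfr2+ sample, and Rtp1, Cnga3 and Cnga4 in 1, while all 6 reached it in 3 Olfr2- samples, through which they passed. Cnga2 reached it in 1 Olfr2+ and 2 Olfr2- samples. Per kilobase of gene length, the median level over the columns was 0.918 CPM per kb for Ric8b, 0.801 for Gnal and 0.137 for Adcy3. The scarce genes had medians of 0.0247 CPM per kb for Cnga3, 0.0149 for Rtp1, 0.0126 for both Cnga1 and Cnga4, 0.00772 for Cnga2, 0.00435 for Rtp2 and 0.00391 for Olfr2. The ranges of neighbours in this order overlapped over the columns. The 2 sets were not separated in every column either: Gnal was above all 7 scarce genes in 12 of 15 columns, Ric8b in 10 and Adcy3 in 8. The lengths come from an annotation of an older build than the one the submitters name. For Olfr2 that annotation gives 6734 bases, and with the RefSeq gene span of 1731 bases its median would be 0.0152 CPM per kb.

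Olfr2 itself, the receptor that names the sort and that is known in rodents to respond to the aldehyde octanal, was counted less in Olfr2+ than in Olfr2- columns. It had 0 to 7 counts in the Olfr2+ columns, with a lowest level of 0, a median of 0.00582 and a highest of 0.234 CPM. In the Olfr2- columns it had 76 counts in 1A, 0 in 3A, 34 in 3B, 25 in 4A and 10 in 4B, or 2.49, 0, 1.07, 0.597 and 0.312 CPM. The columns overlap through Olfr2- 3A, which had no count of the receptor, and Olfr2- 1A was the highest of all 15. A count of 0 allows up to 0.0564 CPM in Olfr2- 3A and up to 0.0314 CPM in the deepest Olfr2+ column, where the limit is 3 counts and covers counting error only. The level in Olfr2- 1A had an exact 95% binomial interval of 1.96 to 3.12 CPM, and that in Olfr2+ 4B, the highest Olfr2+ column, an interval of 0.0942 to 0.483 CPM.

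Summed by sample, Olfr2 had 1, 9 and 8 counts in Olfr2+ samples 2, 3 and 4, against 76, 34 and 35 counts in Olfr2- samples 1, 3 and 4. These samples held 364, 273 and 67.5 M counts in Olfr2+ and 30.5, 85.0 and 73.9 M in Olfr2-, so the samples did not overlap. Olfr2 averaged 0.0631 ± 0.0670 CPM in Olfr2+ and 0.707 ± 0.695 CPM in Olfr2- samples (SD, n = 3 each, scaled with TMM factors). Its log2 fold change (Olfr2+ over Olfr2-) was -3.55 with a standard error of 1.39, which did not pass the test (adjusted p = 0.104, edgeR's quasi-likelihood test with Benjamini-Hochberg adjustment over all genes tested). Olfr2- sample 1, a single column, held 46.6% of all Olfr2 counts, and without it the log2 fold change was -2.40 (adjusted p = 0.365, edgeR). Over the columns below 60 M counts it was -1.82 with a standard error of 1.13 (adjusted p = 0.561 by the same test). In neither set of columns was the transcript of the receptor higher in cells sorted as Olfr2+. Fewer cells with the transcript and less transcript in each cell cannot be told apart in such bulk samples.

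Olfactory receptor genes can share sequence, so the coding sequence of Olfr2 was compared with those of the other genes of the GENCODE annotation. Its 981 coding bases hold 932 stretches of 50 bases, and 0 of them occur in transcripts of another gene. Over the whole Olfr2 transcripts, 71 stretches of 50 bases were shared with 212 other genes, 6 of them named Olfr with a number. The longest run that the coding sequence shared with another receptor was 35 bases, shown because it marks the most ambiguous coding stretch for a short read. It was shared with Olfr1000, at coding bases 535 to 569 on mouse chromosome 7 (GRCm38, sense strand of the transcript).
Olfr2 shared run: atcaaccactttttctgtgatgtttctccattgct

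Other olfactory receptor genes differed between the column sets as well. The 1101 other protein-coding genes named Olfr with a number summed to 1.46 to 27.6 CPM in the deep Olfr2+ columns, 35.9 to 90.1 CPM in the shallow Olfr2+ columns and 140 to 335 CPM in the Olfr2- columns. Between 4.18 and 47.1% of them were counted in an Olfr2+ column and 26.2 to 65.5% in an Olfr2- column. Their sums in the groups did not overlap, and neither depth set of Olfr2+ reached the lowest Olfr2- column.

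**Figure D1:**
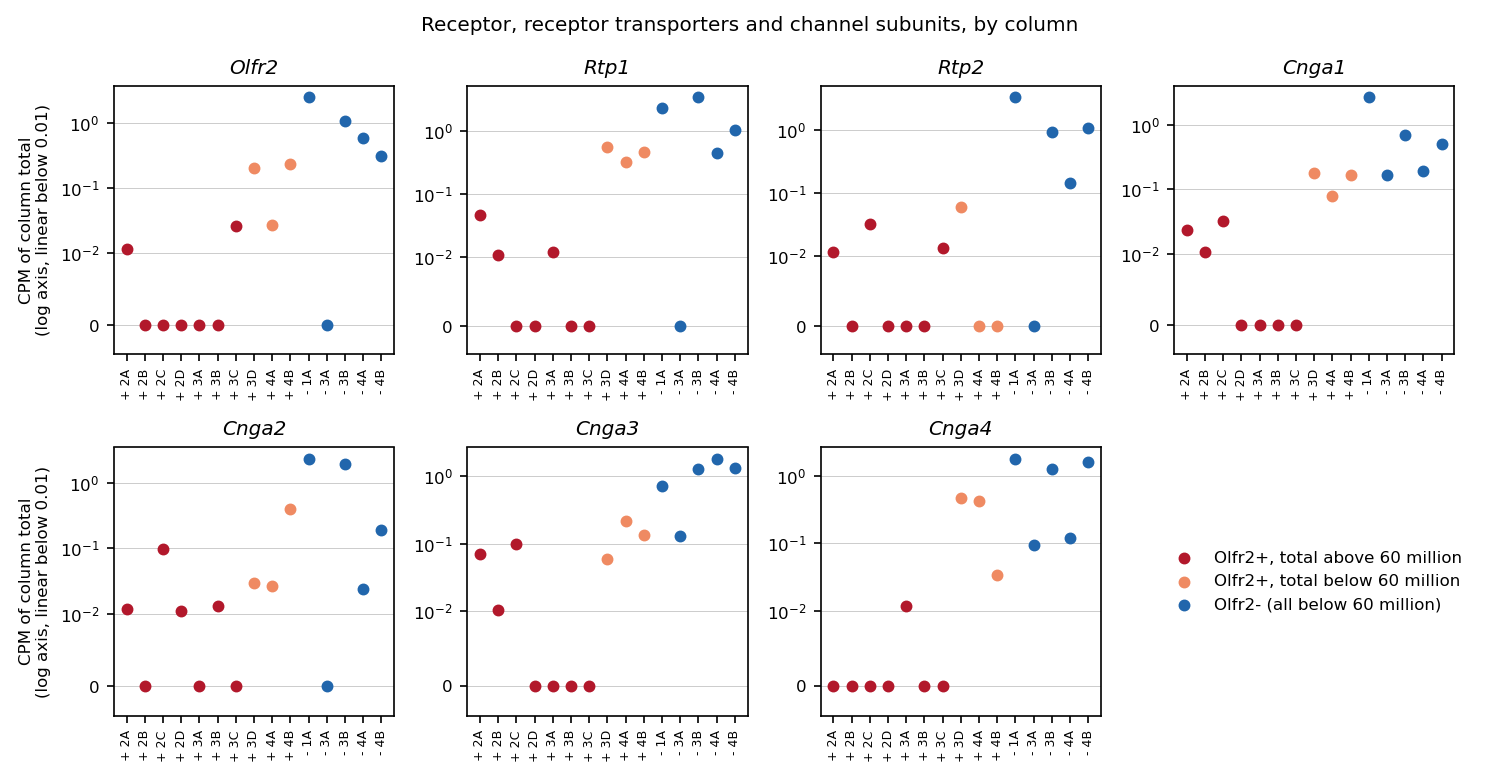
Levels of Olfr2, Rtp1, Rtp2, Cnga1, Cnga2, Cnga3 and Cnga4 in each of the 15 columns, in CPM on a log axis that is linear close to 0, with Olfr2+ columns left of Olfr2- columns and the depth sets marked by colour. The Olfr2+ values of Olfr2 lie between 0 and 0.234 CPM, and 4 of the 5 Olfr2- columns lie above them.

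Rtp1 and Rtp2 encode the transporting proteins that help odorant receptors reach the cell surface. Rtp1 ranged from 0 to 0.561 CPM over the Olfr2+ columns with a median of 0.0111, against 2.36, 0, 3.46, 0.454 and 1.06 CPM in Olfr2- 1A, 3A, 3B, 4A and 4B. The shallow Olfr2+ columns had 0.319 to 0.561 CPM and the deep ones at most 0.0466 CPM, so the shallow ones overlapped with Olfr2- 4A. Rtp1 summed to 5, 20 and 26 counts in Olfr2+ samples 2, 3 and 4, against 72, 110 and 53 counts in Olfr2- samples 1, 3 and 4. Rtp1 gave a log2 fold change of -2.35 with a standard error of 1.31 (adjusted p = 0.199, edgeR) and -0.76 with a standard error of 0.92 in the columns below 60 M counts (adjusted p = 0.784, edgeR).

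Rtp2 had few counts in Olfr2+ samples. It reached the filter on low counts in 0 Olfr2+ and 3 Olfr2- samples, so it was tested only because it was high in Olfr2-. Of the 10 genes it alone passed the test, and with no filter on low counts its adjusted p was 0.0403 (edgeR). It was lower by 5.79 on the log2 scale in Olfr2+ samples (log2 fold change -5.79, standard error 1.53, adjusted p = 0.0495, edgeR's quasi-likelihood test). Its counts were 4, 3 and 0 in Olfr2+ samples 2, 3 and 4, against 100, 30 and 40 in Olfr2- samples 1, 3 and 4, so it was lower in 3 of 3 samples. By column it was at 0 in 6 of 10 Olfr2+ columns and reached 0.0591 CPM at most, against 3.28, 0, 0.943, 0.143 and 1.06 CPM in Olfr2- 1A, 3A, 3B, 4A and 4B. Olfr2- 3A, the deepest Olfr2- column, again had no count. With only the columns below 60 M counts, Rtp2 had a log2 fold change of -4.78 with a standard error of 1.55 and did not pass (adjusted p = 0.411, edgeR). The call was also lost when any 1 of the 6 samples was left out, with adjusted p between 0.0554 and 0.174 and log2 fold changes between -6.20 and -4.53. With counts this near 0 in Olfr2+, the size of the fold change depends on how they are handled.

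The promoter of Rtp2 is shown as that of a receptor transporter whose counts differ between the groups. The 250 bases before its start lie at chr16:23930795-23931044 on the minus strand (RefSeq, GRCm38.p6). Capitals mark the cAMP response element core TGACG, here read on the other strand as CGTCA, and the PU.1 core GAGGAA. PU.1 is a transcription factor of macrophages and other myeloid cells.
Rtp2 promoter: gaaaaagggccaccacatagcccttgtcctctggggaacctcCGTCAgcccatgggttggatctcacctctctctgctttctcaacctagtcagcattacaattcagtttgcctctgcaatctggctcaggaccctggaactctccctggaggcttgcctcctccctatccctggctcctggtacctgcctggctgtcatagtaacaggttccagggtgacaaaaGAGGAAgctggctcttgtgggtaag
Both strands were searched, and 17.8% of the 32851 windows of this length in the RefSeq table held TGACG while 23.3% held GAGGAA. A match says only that the letters are present.

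Gnal encodes the alpha subunit of Golf, the stimulatory G protein downstream of odorant receptors. It ranged from 0.337 to 24.7 CPM over the Olfr2+ columns with a median of 10.3, against 2.07, 52.1, 8.95, 8.05 and 3.96 CPM in Olfr2- 1A, 3A, 3B, 4A and 4B. The groups overlapped, and Olfr2- 3A, the column with no count of Olfr2, Rtp1, Rtp2 or Cnga2, had the highest Gnal level of all. Gnal averaged 17.0 ± 8.00 CPM in Olfr2+ and 10.8 ± 14.1 CPM in Olfr2- samples (SD, n = 3 each, TMM-scaled). Its log2 fold change was 0.65 with a standard error of 1.42 (adjusted p = 0.743, edgeR). The sign turned to -0.48 when counts were scaled by library totals and to -0.29 in the columns below 60 M counts, so the data gave Gnal no direction.

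Ric8b encodes a chaperone and exchange factor of Golf that enhances odorant receptor signalling. It ranged from 0.629 to 159 CPM over the Olfr2+ columns with a median of 6.49, against 2.46, 6.78, 4.84, 1.39 and 1.47 CPM in Olfr2- 1A, 3A, 3B, 4A and 4B. Olfr2+ 2A alone held 58.4% of all Ric8b counts, and within sample 2 the columns ran between 0.629 and 159 CPM. Summed by sample, Ric8b had 14786, 7619 and 285 counts in Olfr2+ samples 2, 3 and 4, against 75, 515 and 105 counts in Olfr2- samples 1, 3 and 4. It averaged 42.8 ± 39.6 CPM in Olfr2+ and 2.32 ± 1.94 CPM in Olfr2- samples (SD, n = 3 each, TMM-scaled). The samples did not overlap with TMM factors, but on library totals Olfr2+ sample 4 had 4.23 CPM, against 6.06 CPM in Olfr2- sample 3. The log2 fold change of 4.20 (standard error 1.52) did not pass the test (adjusted p = 0.0905, edgeR), and it was 0.40 with a standard error of 1.23 in the columns below 60 M counts (adjusted p = 0.922, edgeR). The 4 highest Ric8b values, 9.31 CPM and above, were all in deep Olfr2+ columns, but so was the lowest, 0.629 CPM in 2C. The deep columns all had the high fibroblast marker sums given above. The part of those cells or of depth in the Ric8b difference was not tested.

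The promoter of Ric8b is shown for its pair of cAMP response element cores, in capitals, because cAMP is the messenger of this pathway. It lies at chr10:84917363-84917612 on the plus strand (RefSeq, GRCm38.p6) and had a GC content of 69.2%, the highest of the windows matched to the 10 genes. Neither core is part of the full element TGACGTCA, which 1.55% of all windows held and none of those matched here did.
Ric8b promoter: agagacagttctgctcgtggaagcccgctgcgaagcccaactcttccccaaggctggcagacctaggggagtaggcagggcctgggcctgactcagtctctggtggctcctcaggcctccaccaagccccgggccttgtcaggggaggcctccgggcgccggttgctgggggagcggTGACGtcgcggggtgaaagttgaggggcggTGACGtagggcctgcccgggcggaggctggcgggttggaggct

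Adcy3 encodes the cyclase that Golf stimulates in olfactory cilia. It ranged from 0.0395 to 77.4 CPM over the Olfr2+ columns with a median of 0.796, against 4.07, 0.62, 4.71, 0.813 and 2.46 CPM in Olfr2- 1A, 3A, 3B, 4A and 4B. The highest values, 24.2, 24.8 and 77.4 CPM, came from Olfr2+ columns 2B, 2A and 2D, and 57.7% of all Adcy3 counts came from 2D. The remaining Olfr2+ columns had 1.68 CPM or less and overlapped with the Olfr2- columns. Adcy3 summed to 11452, 180 and 38 counts in Olfr2+ samples 2, 3 and 4, against 124, 183 and 113 counts in Olfr2- samples 1, 3 and 4. Adcy3 gave a log2 fold change of 3.71 with a standard error of 1.73 (adjusted p = 0.143, edgeR). It was -1.01 without Olfr2+ sample 2 and -1.0 in the columns below 60 M counts, so its direction rested on that 1 sample.

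Gnal and Adcy3 counts are also uncertain for another reason. Exons of Gnal overlap those of Mppe1 on the opposite strand, and of 836 shared 50-base stretches among the 11229 in Gnal transcripts (7.45%), 794 were shared with Mppe1. Exons of Adcy3 overlap those of Cenpo on the opposite strand, and 1195 of the 6422 stretches in Adcy3 transcripts (18.6%) were shared, all of them with Cenpo. Smart-Seq2 does not mark the strand, so reads from these stretches cannot be told apart. In Olfr2, 71 of 6582 stretches (1.08%) of the whole transcripts were shared, and in Rtp1, Rtp2, Ric8b, Cnga2 and Cnga4 none was.

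**Figure D2:**
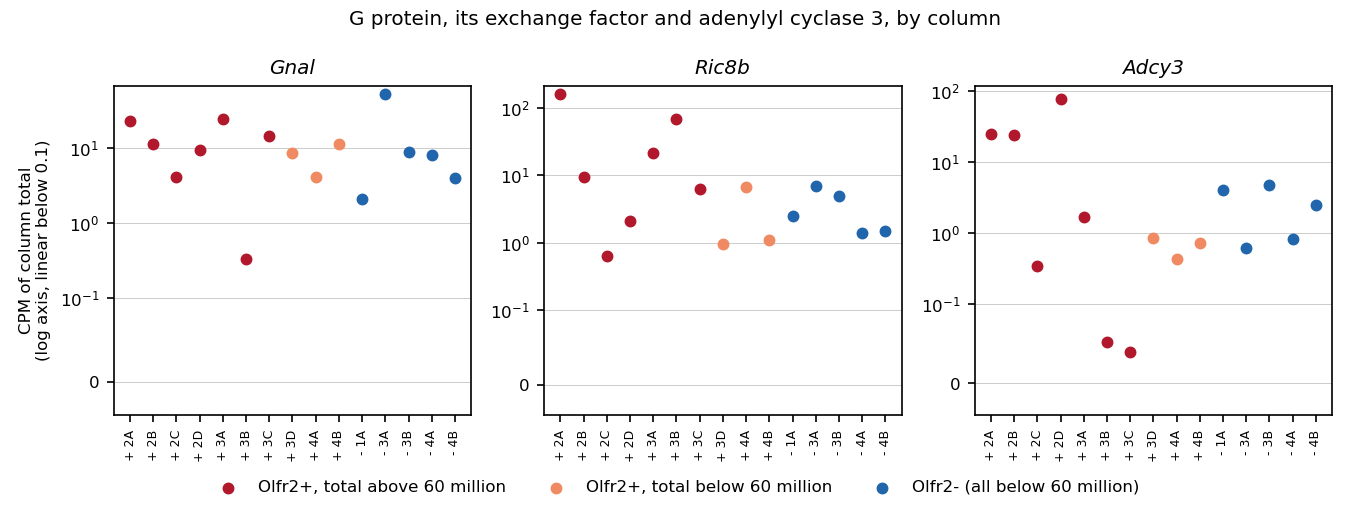
Levels of Gnal, Ric8b and Adcy3 in each of the 15 columns, in CPM on a log axis that is linear close to 0, with Olfr2+ columns left of Olfr2- columns and the depth sets marked by colour. Ric8b reaches 159 CPM and Adcy3 77.4 CPM in single Olfr2+ columns, and Gnal reaches 52.1 CPM in an Olfr2- column.

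The 4 channel subunits were all scarce. Cnga2 is the main subunit of the olfactory cyclic nucleotide-gated channel and Cnga4 modulates it, while Cnga1 belongs to the channel of rod photoreceptors and Cnga3 to that of cones. Cnga2 had at most 0.402 CPM in the Olfr2+ columns with a median of 0.0123, against 2.30, 0, 1.92, 0.0239 and 0.187 CPM in Olfr2- 1A, 3A, 3B, 4A and 4B. The groups overlapped, also by sample, with 11, 2 and 13 counts in Olfr2+ samples 2, 3 and 4, against 70, 61 and 7 counts in Olfr2- samples 1, 3 and 4. For Cnga2 the log2 fold change was -2.80 with a standard error of 1.38 (adjusted p = 0.159, edgeR).

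Cnga4, its olfactory partner, had a median of 0 and a highest value of 0.473 CPM in the Olfr2+ columns, against 1.77, 0.0939, 1.26, 0.119 and 1.59 CPM in Olfr2- 1A, 3A, 3B, 4A and 4B. It had counts in 1 of the 7 deep Olfr2+ columns and in all 3 shallow ones, 2 of which were above Olfr2- 3A and 4A. Cnga4 summed to 0, 17 and 17 counts in Olfr2+ samples 2, 3 and 4, against 54, 45 and 56 counts in Olfr2- samples 1, 3 and 4. Cnga4 gave a log2 fold change of -2.42 with a standard error of 1.38 (adjusted p = 0.206, edgeR).

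Of the photoreceptor subunits, Cnga1 had at most 0.177 CPM in the Olfr2+ columns, against 2.66, 0.169, 0.691, 0.191 and 0.499 CPM in Olfr2- 1A, 3A, 3B, 4A and 4B. Cnga3 had at most 0.213 CPM in the Olfr2+ columns, against 0.722, 0.132, 1.29, 1.82 and 1.34 CPM in the same Olfr2- columns. Both overlapped only through Olfr2- 3A. Their log2 fold changes were -3.43 with a standard error of 1.36 for Cnga1 (adjusted p = 0.106, edgeR) and -2.70 with a standard error of 1.30 for Cnga3 (adjusted p = 0.152, edgeR). In the columns below 60 M counts the 4 subunits had log2 fold changes of -1.91 for Cnga1, -2.13 for Cnga2, -2.13 for Cnga3 and -0.60 for Cnga4, with adjusted p between 0.513 and 0.843 (edgeR).

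The promoter of Cnga2 is shown because it alone among those matched held the Ebf motif TCCCNNGGG, in capitals, which was found in 5.60% of all windows. Ebf factors bind promoters of many olfactory genes. The window lies at chrX:71991599-71991848 on the plus strand (RefSeq, GRCm38.p6). Promoters were matched for 7 of the 10 genes, and the window of Cnga4 held none of the 5 motifs searched, which also included the TATA box TATAAA (12.4% of windows).
Cnga2 promoter: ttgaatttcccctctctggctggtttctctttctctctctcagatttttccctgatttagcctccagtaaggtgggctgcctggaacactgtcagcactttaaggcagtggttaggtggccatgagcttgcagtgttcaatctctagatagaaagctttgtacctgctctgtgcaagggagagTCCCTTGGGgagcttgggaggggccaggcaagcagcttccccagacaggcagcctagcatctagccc

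Set against all genes, lower values in Olfr2+ were common for genes as scarce as these. Of the 10 genes, 1 was called lower and 0 higher by edgeR, where 112 of 24362 genes tested were called lower (0.460%) and 273 higher (1.12%). At an unadjusted p under 0.05, 6 of the 10 passed, where 7821 genes in all did (32.1%). Between samples, 6 of the 10 were lower in Olfr2+ without overlap (Olfr2, Rtp1, Rtp2, Cnga1, Cnga3 and Cnga4), where 22.1% of all genes tested were, and Ric8b was higher without overlap, where 13.5% were. On library totals, without TMM factors, the same 6 genes were lower without overlap, where 29.8% of all genes were, and Ric8b overlapped, where 6.21% of all genes were higher without overlap. Among the 9306 genes that averaged under 1 CPM, as the 7 scarce genes did, 46.9% were lower without overlap and 85.0% had a log2 fold change below 0. A log2 fold change below 0 was found for 7 of the 10, where 47.5% of all genes had one. The median log2 fold change was -2.56 over the 10 genes and 0.24 over all genes tested. On library totals the median over all genes moved to -0.88, and the 7 scarce genes stayed below 0 under all 3 scalings tried (TMM, RLE and library totals).

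In the columns below 60 M counts, 0 of the 10 genes and 0 of 29989 genes tested passed edgeR's test (0% of them called). At an unadjusted p under 0.05 there was 1 of the 10, Rtp2, which was lower. Over all genes, 3127 had such a p in either direction, and 1672 of these were lower (5.58% of all genes tested). 9 of the 10 genes had a log2 fold change below 0, where 59.8% of all genes did, and 0 of the 10 were without overlap, where 4.39% of all genes were lower and 0.874% higher without overlap. The median log2 fold change was -1.41 over the 10 genes and -0.43 over all genes.

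**Figure D3:**
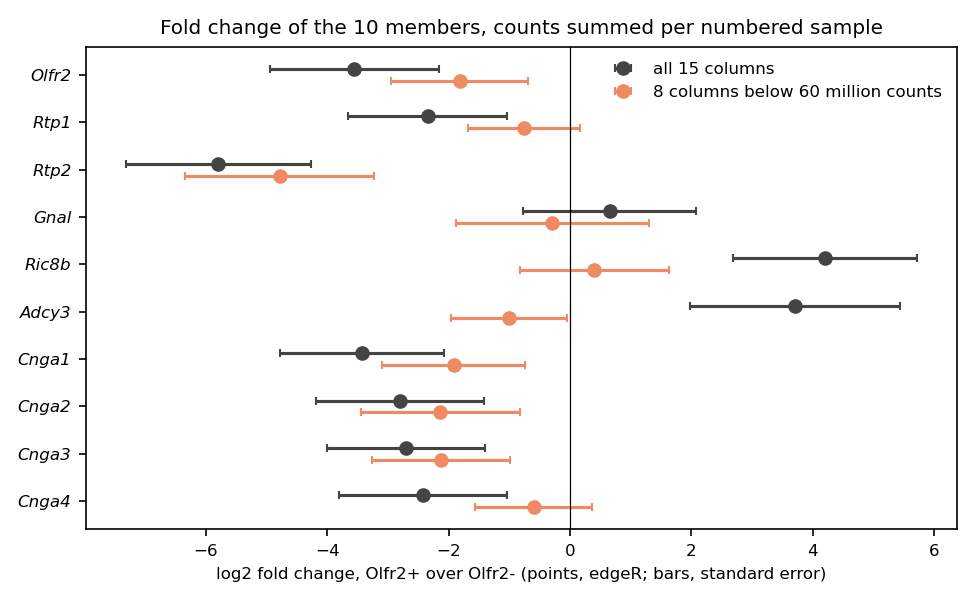
Log2 fold change (Olfr2+ over Olfr2-) of the 10 genes with its standard error, over all columns summed to 3 samples a group and over the columns below 60 M counts summed to 2 Olfr2+ and 3 Olfr2- samples. The fold change of Ric8b is 4.20 over all columns and 0.40 below 60 M counts, that of Adcy3 is 3.71 and -1.0, and Rtp2 lies at -5.79 and -4.78.

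The scarce genes varied together over the columns. The 21 pairs among them had Pearson correlations of log2(CPM + 0.5) between 0.532 and 0.961, with a median of 0.857 over the 15 columns, which share depth sets and library names. Correlations among other genes averaging under 1 CPM were not computed, and 85.0% of such genes had a log2 fold change below 0. The joint variation is therefore not shown to be particular to these 7 genes. The 3 pairs among Gnal, Ric8b and Adcy3 had correlations of 0.0711 to 0.229, and the 21 mixed pairs had a median of -0.264. The summed level of the 7 scarce genes was 0.0111 to 0.260 CPM in the deep Olfr2+ columns, 1.09 to 1.57 CPM in the shallow ones and 0.395 to 15.6 CPM in the Olfr2- columns. The shallow Olfr2+ columns therefore lay above all deep ones and above Olfr2- 3A.

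**Figure D4:**
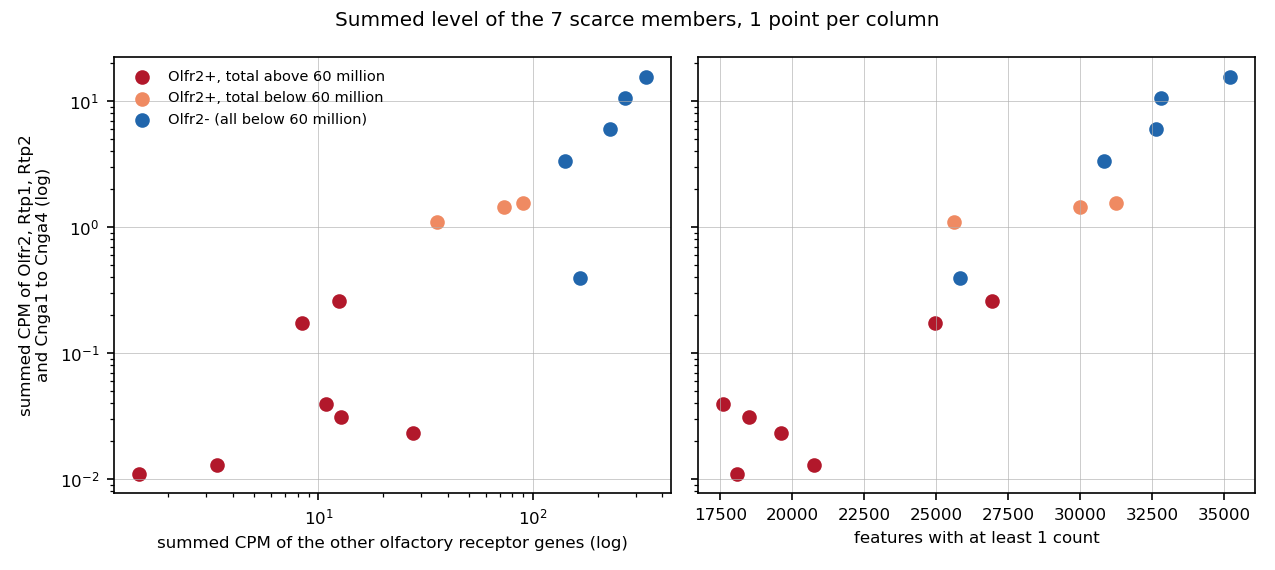
Summed CPM of the 7 scarce genes (log axis) in each of the 15 columns, against the summed CPM of the 1101 other olfactory receptor genes (left, log axis) and against the number of features with at least 1 count (right, linear axis), with group and depth set by colour. In the left panel the deep Olfr2+ columns lie lowest on both axes and the Olfr2- columns lie between 140 and 335 CPM of other receptors, and in the right panel the deep Olfr2+ columns hold 17609 to 26927 features, the shallow ones 25612 to 31227 and the Olfr2- columns 25813 to 35201.

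The genes whose levels ran most like those of Olfr2 over the 15 columns, among 12555 genes averaging at least 1 CPM, were Lrit1 (Pearson r = 0.987), Slc24a2 (r = 0.970) and Asic2 (r = 0.966). All 3 were named again with a smaller pseudocount of 0.05, and 1 with Spearman's correlation. For Rtp1 the leading genes were Atp10b (r = 0.981), Scn11a (r = 0.972) and Cubn (r = 0.972), none of which was named again under either change. Cnga1 ran with Kcnk3 (r = 0.959), Il5 (r = 0.952) and Fibcd1 (r = 0.949), Cnga2 with Tmem150b (r = 0.931), Rgs8 (r = 0.915) and Exph5 (r = 0.892), and Cnga3 with Ptprn (r = 0.962), Zfp169 (r = 0.953) and Kif2c (r = 0.949), again with 0 named under either change. Ric8b was nearest to Sdhaf2 (r = 0.916), Surf1 (r = 0.915) and Meis3 (r = 0.896), Adcy3 to Pax1 (r = 0.939), Acot8 (r = 0.885) and Zfp653 (r = 0.884), and Gnal to Nsmaf (r = 0.835), Prpf38b (r = 0.834) and Ksr1 (r = 0.820). These correlations describe the columns and carry no test.

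Of a list of 55 other genes of the pathway, 0 passed edgeR's test in either direction, where 1.58% of all genes did, with 14 at an unadjusted p under 0.05, where 32.1% of all genes were. DESeq2 called 9 of them higher and 3 lower, where it called 28.6% of all genes in either direction, and limma-voom called 0. Their median log2 fold change was 1.34, with 13 of 55 below 0, against 0.24 over all genes. On library totals it was 0.25, against -0.88 over all genes, and 24 were below 0. In the columns below 60 M counts it was 0.26, against -0.43.

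By role, the median log2 fold change over all columns was 2.61 for receptor transport, 2.62 for G protein subunits, 2.58 for adenylyl cyclases other than Adcy3, -0.28 for channels and ion transport, 0.97 for cAMP breakdown and receptor shut-off, and 1.26 for cAMP effectors. In the columns below 60 M counts the same medians were -0.24 for receptor transport, 1.24 for G protein subunits, -0.84 for adenylyl cyclases, -1.21 for channels and ion transport, 0.41 for breakdown and shut-off, and 0.89 for effectors. The sign turned for receptor transport and adenylyl cyclases. Adcy7, the adenylyl cyclase with the highest mean level here and one known from blood cells, had 763, 235 and 68.6 CPM in Olfr2+ samples 2, 3 and 4, against 7.21, 46.7 and 21.1 CPM in Olfr2- samples 1, 3 and 4 (TMM-scaled). The log2 fold change of Adcy7, 3.83 (standard error 1.13), did not pass the test (adjusted p = 0.0665, edgeR). It was 0.73 in the columns below 60 M counts. Gnb1, a G protein beta subunit, had a log2 fold change of 2.62 (adjusted p = 0.0910, edgeR) over all columns and of 0.12 below 60 M counts (adjusted p = 0.974, edgeR). Ano6, a scramblase and ion channel of the anoctamin family, had one of 3.04 (adjusted p = 0.0814, edgeR) over all columns and of 2.49 below 60 M counts (adjusted p = 0.479, edgeR). Reep5, the highest gene for receptor transport, had a log2 fold change of -0.044 (adjusted p = 0.976, edgeR) over all columns and of -0.27 below 60 M counts. Prkar1a, a regulatory subunit of protein kinase A and the highest of the cAMP effectors, had one of 1.37 (adjusted p = 0.292, edgeR) over all columns and of 0.87 below 60 M counts.

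Markers of olfactory sensory neurons and of other cell types were present, with sums that ranged widely over the columns. The 6 markers of olfactory sensory neurons (Omp, Gng13, Cngb1, Ano2, Stoml3 and Gap43) summed to 0.342 to 290 CPM in Olfr2+ columns and 4.66 to 25.2 CPM in Olfr2- columns, and 0 of the 6 were at 0 in all columns. The value of 290 CPM was almost wholly Omp in Olfr2+ 2A, the column with the highest Ric8b level. The 4 peripheral neuron markers (Tubb3, Snap25, Elavl4 and Th) summed to 0.0129 to 27.8 CPM in Olfr2+ columns and 0.545 to 7.81 CPM in Olfr2- columns. Sums of 4 markers each reached 738 CPM in Olfr2+ and 211 CPM in Olfr2- columns for endothelium, 233 and 63.8 CPM for B cells, and 133 and 109 CPM for T cells. The part of such cells in the levels of the scarce genes was not tested.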

How the data were processed

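The members and gene lists were chosen with earlier results of these data known. The deposited values were whole-number read counts per feature, not normalized by the authors, in 15 columns matched to samples by library name. Per the submitters' processing notes, GRCm39, DRAGEN, STAR 2.7.1 and DESeq2 1.34 were used, with no roles stated. Strand setting and annotation release: not given in the sources used here. Per the labels' protocols, Smart-Seq2 was used, which carries no molecular identifiers.

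Counts were summed per numbered sample (3 against 3) and tested over all genes with edgeR 4.0.16 in R 4.3.3: TMM scaling, filter by group, quasi-likelihood F test, Benjamini-Hochberg adjusted p under 0.05. A standard error is the log2 fold change divided by the root of its F statistic. The division at 60 M counts was chosen after seeing the data. Intervals and limits for 0 (3 counts) cover counting error only. The method was tested on simulated data, with changes put only into genes above 10 CPM. Changes in genes as scarce as Olfr2 or Rtp2, which averaged under 1 CPM, were not simulated. Alternatives used limma 3.58.1 (voom), DESeq2 1.42.0, other scalings, no filter, other sums of columns, a replicate block and leaving out samples. Named genes were the 10 members, pathway genes past the test, the highest pathway gene of each role (mean CPM), and, for members counted in at least 10 columns and for Olfr2, the 3 genes most correlated over columns. Gene lengths and the 50-base comparison used GENCODE M21 (GRCm38), and promoters RefSeq (GRCm38.p6). No protein sequences were used here, and 1 gene named by this rule is not reported here.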

Additional observations from a re-analysis of the deposited data

Results flagged for a closer look

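Of 20 sets of columns (10 genes in 2 groups), 5 held a column that stood apart from the rest of its group by Dixon's gap test. For normally distributed values that test flags about 1 in 20 by chance. The CPM values here were skewed, so that rate cannot be set against the 5. Ric8b was at 159 CPM in Olfr2+ 2A, where the next Olfr2+ column had 68.5 CPM. Adcy3 was at 77.4 CPM in Olfr2+ 2D, where the next had 24.8 CPM. Cnga2 was at 0.402 CPM in Olfr2+ 4B, where the next had 0.0977 CPM, a difference of few counts. Gnal was at 52.1 CPM in Olfr2- 3A, where the next Olfr2- column had 8.95 CPM. Cnga1 was at 2.66 CPM in Olfr2- 1A, where the next had 0.691 CPM.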

How the results depend on the processing

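Of 146 recomputed log2 fold changes of the 10 genes with an adjusted p, 128 kept their direction and side of the threshold. Rtp2 kept its direction in 14 of 14 alternatives and lost its call in 9 of them, with adjusted p up to 0.666. Gnal turned to -0.48 on library totals, -0.29 in the columns below 60 M counts and -0.034 without Olfr2- sample 1 (-0.034 to 2.82 without single samples). Adcy3 turned to -1.0 below 60 M counts and -1.01 without Olfr2+ sample 2 (-1.01 to 4.26 without single samples). With the sample number as a replicate block, Adcy3 turned to -0.71, Olfr2 was -1.92 (adjusted p = 0.756, edgeR), Rtp2 was -4.86 (adjusted p = 0.666, edgeR), 0 of the 10 genes were called lower, and 2 genes in all were called higher and 0 lower. In that fit Olfr2+ sample 2 and Olfr2- sample 1 had no same-numbered partner, so the fold changes came from samples 3 and 4 alone. Deviations of same-numbered samples from their group means had correlations of 0.0127 (sample 3) and -0.0717 (sample 4). Those of differently numbered samples ran from -0.175 to 0.2. So few pairs cannot tell whether same-numbered samples share more than a number. The causes of these changes were not tested.

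DESeq2 gave Adcy3 no p-value. It called 1 of the 10 genes higher (Ric8b) and 3 lower, with Olfr2 at -3.62 (adjusted p = 0.0218; over all alternatives 0.0218 to 0.756, and -4.59 to -2.40 without single samples). Limma-voom and the columns below 60 M counts called 0 lower, as did leaving out each sample (0 to 0). Of the 55 pathway genes, DESeq2 called 9 higher and 3 lower, sums per library name and separate columns called 2 higher, and leaving out samples 0 to 1. Over all genes (273 higher, 112 lower), the counts were 86 and 310 on library totals, 642 and 239 with no filter, 3627 and 3347 with DESeq2, 0 and 0 with limma-voom, 885 and 683 per library name, 649 and 244 with separate columns, 0 and 0 below 60 M counts, and 6 to 973 and 0 to 113 without single samples. As separate columns, 7 of the 10 genes passed the filter and 0 were called lower, but Rtp2, Cnga1 and Cnga2 were not tested. Leaving out Olfr2+ sample 4 gave the 973 and 113, and leaving out Olfr2+ sample 2 the 6 and 0. A count of 0 allows up to 0.100 CPM in the shallowest column, which limits what can be said of the 7 scarce genes.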
